A study of Mus musculus with 12 samples.

Results

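The 8 Polycomb group genes described here are Ezh1, Ezh2, Eed and Suz12 of Polycomb repressive complex 2 (PRC2) and Cbx2, Cbx7, Cbx8 and Bmi1 of Polycomb repressive complex 1 (PRC1). They were found by symbol, and all 8 were among the 15759 entries of the expression table. The set was selected on the genotype results of these same libraries, so the genotype differences of the 8 genes are given as a description. For these differences no p is given, and which members met the thresholds for a call is stated beside the share of all genes that did, without being read as evidence. The regional comparison in WT mice was not used to choose them and was tested. All 8 passed the filter on low values, a mean of at least 10 normalised counts over the 12 libraries, which left 15369 tested genes.

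Spinocerebellar ataxia type 1 (SCA1) is caused by an expanded CAG repeat in the gene of ataxin-1, a nuclear protein that takes part in transcriptional repression. In SCA1 KI mice (Atxn1 154Q/2Q) one copy of Atxn1 encodes 154 glutamines and its partner 2, both expressed from the gene's own regulatory sequences in all cells that use it, and were compared with WT littermates. All mice were C57BL/6J and 12 weeks old, and the labels list males, whereas the methods of the study combine males and females. RNA of macrodissected cortex and cerebellum gave 12 libraries, 3 for each of the 4 groups: WT cortex, SCA1 KI cortex, WT cerebellum and SCA1 KI cerebellum. The labels call the 3 libraries of a group biological replicates and do not say which animal each came from.

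Polycomb group proteins keep genes silent through 2 families of chromatin-modifying complexes. PRC2 methylates lysine 27 of histone H3 with the catalytic subunit Ezh1 or Ezh2, and needs Eed and Suz12 to do so. Canonical PRC1 holds a chromobox protein that binds this mark, a Ring finger enzyme that ubiquitinates histone H2A, and a partner of the Pcgf family such as Bmi1. Ezh2 is typical of dividing cells and Ezh1 of mature cells such as neurons, in which PRC2 keeps genes of other lineages silent.

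The values are normalised counts, the reads on a gene divided by 1 size factor per library. Libraries held 29520855 to 51311309 reads on genes. Atxn1 had 6521 to 8147 normalised counts in WT and 4604 to 7249 in SCA1 KI cortical libraries, and 3628 to 3737 and 3717 to 4138 in cerebellar ones, which does not check the genotype, since the repeat is not visible in counts per gene. Markers followed the regions. Summed markers of cerebellar granule cells were 102751 to 144420 in the cerebellum and 711 to 1010 in the cortex, and those of cortical excitatory neurons were 53857 to 79696 in the cortex and 12015 to 20340 in the cerebellum. In whole tissue, fewer cells of a type and less RNA per cell cannot be told apart. In these libraries 4 of 6 markers of thalamus and midbrain were called lower in the SCA1 KI cerebellum, where their sum was 3856 to 4252 against 7573 to 12674 in the WT cerebellum, and WT cerebellum library 2 had the highest sum. In the SCA1 KI cortex, 1 of these 6 was called higher. In the SCA1 KI cortex, 4 of 5 astrocyte markers were called lower, with a sum of 53063 to 58792 against 70414 to 82888 in WT, and in the SCA1 KI cerebellum 2 of 5. Markers of cortical excitatory neurons summed to 53857 to 63497 in SCA1 KI and 78295 to 79696 in WT cortical libraries, and those of interneurons to 22049 to 30452 and 30852 to 33400, with 1 of 5 called lower in each list. For oligodendrocyte precursors, with 1 of 3 called lower, the cortical sums were 3400 to 4281 in SCA1 KI and 4698 to 5441 in WT mice, and for the Purkinje cell list, with 3 of 5 called lower, 6119 to 8513 and 9019 to 10964. Pcp2 of the Purkinje cell list had 0 to 28.5 normalised counts in cortical libraries, so these cortical sums rest on other genes of that list. For the striatum list 1 of 4 was called lower in the cortex. In the cerebellum 2 of 5 interneuron and 1 of 5 microglial markers were called lower, and 1 of 5 markers of cortical excitatory neurons higher. Purkinje cell markers summed there to 130694 to 145377 in SCA1 KI and 146597 to 184862 in WT libraries. Oligodendrocyte markers summed to 139174 to 139535 and 163466 to 250154, with 0 of 5 called in either list. Markers of cortical excitatory neurons went the other way, at 18450 to 20340 and 12015 to 17031. The part of these markers in the results below was not tested.

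Promoters are shown for Cbx8, the member with the largest genotype difference, Bmi1, the other member called by genotype, and Ezh2, the member with the largest regional difference. They are from RefSeq (GRCm38.p6), which matched 7 of the 8 members by symbol, and reach from 250 bases before to 50 bases after the start of the gene in RefSeq, 5′ to 3′ on the gene's strand. GENCODE places the starts of Ezh2 and Cbx8 upstream of those in RefSeq, so that the whole Ezh2 window lies within the gene as GENCODE draws it. Capitals mark the CCAAT box (CCAAT, or ATTGG on the other strand) and the E2F words TTTCCCGC, TTTCGCGC, TTTGCCGC and TTTGGCGC, searched on both strands. The CCAAT box and the E2F words do not share bases in these 3 windows.
Cbx8, minus strand, chr11:119040864-119041163: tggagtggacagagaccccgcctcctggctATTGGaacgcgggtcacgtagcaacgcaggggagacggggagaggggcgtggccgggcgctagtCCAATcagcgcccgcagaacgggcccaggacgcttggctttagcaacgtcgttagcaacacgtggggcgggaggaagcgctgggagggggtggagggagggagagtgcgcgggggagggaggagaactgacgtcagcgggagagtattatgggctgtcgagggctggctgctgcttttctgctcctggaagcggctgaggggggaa
Bmi1, plus strand, chr2:18676768-18677067: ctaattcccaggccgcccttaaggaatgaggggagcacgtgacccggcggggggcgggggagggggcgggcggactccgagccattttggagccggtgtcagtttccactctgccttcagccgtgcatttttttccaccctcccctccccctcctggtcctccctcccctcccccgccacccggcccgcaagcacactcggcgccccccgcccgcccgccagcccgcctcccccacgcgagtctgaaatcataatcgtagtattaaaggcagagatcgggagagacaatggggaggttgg
Ezh2, minus strand, chr6:47594981-47595280: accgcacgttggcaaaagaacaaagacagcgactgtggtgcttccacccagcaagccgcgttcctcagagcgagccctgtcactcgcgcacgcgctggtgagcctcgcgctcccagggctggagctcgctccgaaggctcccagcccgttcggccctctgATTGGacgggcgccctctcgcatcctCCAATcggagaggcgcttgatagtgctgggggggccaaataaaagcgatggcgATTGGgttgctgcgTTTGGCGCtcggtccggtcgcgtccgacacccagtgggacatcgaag
An E2F word was found in the promoters of Ezh2 and Suz12, 2 of the 7 members with a promoter, and in 2.26% of all 32851 promoters of this length. In Ezh2 the word TTTGGCGC began at base 4, counted from the RefSeq start as base 1. A CCAAT box was found in 5 of the 7, namely Ezh2, Eed, Suz12, Cbx7 and Cbx8, and in 37.4% of all promoters. The 2 words TGAATGAA and TGAATGGA, which are bound by Capicua, a DNA-binding partner of ataxin-1, were found in 2.47% of all promoters and in none of the 7. The 3 windows were rich in G and C, at 66% for Cbx8, 66.3% for Bmi1 and 64.3% for Ezh2, against a median of 52.7% over all promoters.

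To see which subunits prevailed in each region, levels were compared between genes per kb of exon (GENCODE vM21). In the WT cortex the order was Bmi1 (566 ± 36.7 normalised counts per kb, SD, n = 3), Suz12 (425 ± 8.27), Ezh1 (354 ± 6.49), Cbx7 (341 ± 26.2), Eed (132 ± 4.997), Cbx8 (78.7 ± 4.16), Cbx2 (24.7 ± 4.30) and Ezh2 (19.3 ± 3.28). The libraries of Ezh1 and Cbx7 overlapped, as did those of Cbx2 and Ezh2, and the other neighbours lay apart. In the WT cerebellum Suz12 (708 ± 89.5) and Bmi1 (699.9 ± 33.7) overlapped at the top, followed by Cbx7 (515 ± 36.4), Ezh1 (432 ± 23.0), Eed (212 ± 14.1) and Cbx8 (93.9 ± 16.1), and Ezh2 (40.7 ± 3.29) and Cbx2 (36.8 ± 1.99) overlapped at the bottom. Ezh1 thus exceeded Ezh2 per kb in all 12 libraries. The ratio of Ezh1 to Ezh2 was 18.8 ± 3.43 in the WT cortex and 10.6 ± 0.942 in the WT cerebellum (SD, n = 3), and its libraries did not overlap between these groups.

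The regional comparison asked how far these genes differ between the WT cortex and the WT cerebellum. Of the 8 members, 7 were called lower in the cortex and none higher, at a Benjamini-Hochberg adjusted p under 0.05 from limma with an absolute log2 fold change (LFC) over 0.25. Of all tested genes, 30.7% were called lower and 31.0% higher in the WT cortex. The median LFC of the 8 members was −0.59, and that of all tested genes 0.00. Of the 47 other Polycomb genes described below, 14 were called higher and 12 lower in the WT cortex, with a median LFC of 0.05. The direction of the 8 members was thus not that of the other Polycomb genes as a list. The cerebellar libraries come from an earlier data set of the same laboratory, so region and data set cannot be told apart.

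**Figure D1:**
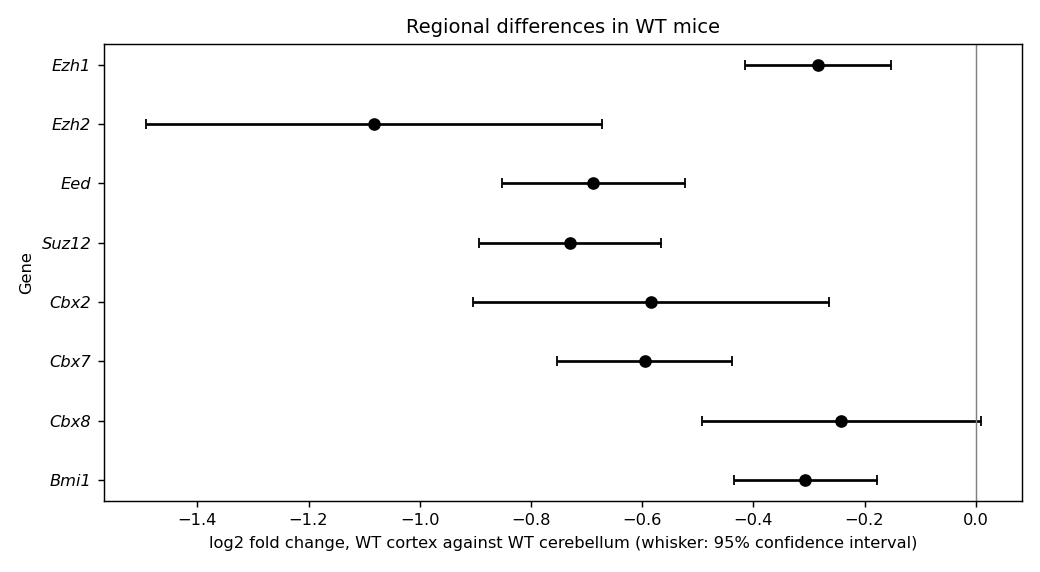
LFC of the 8 members between WT cortex and WT cerebellum (horizontal axis, log2 scale, negative where the cortex was lower), with points for the estimate and whiskers for the 95% confidence interval from limma, n = 3 libraries per group. All 8 estimates lie below 0, from −1.08 for Ezh2 to −0.24 for Cbx8, whose interval reaches 0.01.

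Ezh2, the PRC2 methyltransferase on chromosome 6 (47530139 to 47595341, minus strand, GRCm38), had the largest regional LFC of the members. WT cortex libraries B, C and D had 140, 143 and 104 normalised counts, and WT cerebellum libraries 2, 4 and 6 had 267, 253 and 296. Every cortical library lay below every cerebellar one, as for 5345 of all 15369 tested genes. The LFC was −1.08 (SE 0.19, limma adjusted p = 0.000229). Markers of proliferating and progenitor cells summed to 4273 to 4467 in the WT cortex and 2806 to 2944 in the WT cerebellum. The cell cycle genes Mki67, Top2a, Cdk1 and Ccnb1 each lay far below these sums, and each overlapped between the WT regions. The sum therefore says little about dividing cells, and their part in the regional difference of Ezh2 was not tested.

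The other PRC2 members were also lower in the WT cortex. Ezh1, the second methyltransferase (chromosome 11, 101191115 to 101226463), had 2692, 2601 and 2617 normalised counts in WT cortex against 3014, 3305 and 3314 in WT cerebellum, an LFC of −0.28 (SE 0.06, limma adjusted p = 0.00109). The LFC of Eed, which binds the methylated lysine, was −0.69 (SE 0.08, limma adjusted p = 3.81e-06). WT cortex libraries had 507, 520 and 483 normalised counts of Eed, and WT cerebellum libraries 760, 867 and 811. Suz12, the subunit that holds PRC2 together, had 2109, 2138 and 2057 in the WT cortex and 3138, 3994 and 3372 in the WT cerebellum, an LFC of −0.73 (SE 0.08, limma adjusted p = 2.09e-06). For each of these genes every cortical WT library lay below every cerebellar one, again beside 5345 of all 15369 tested genes.

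Among PRC1 members, Cbx7, a chromobox protein common in differentiated cells, had 2408, 2102 and 2126 normalised counts in WT cortex and 3135, 3288 and 3598 in the WT cerebellum. Its LFC was −0.60 (SE 0.07, limma adjusted p = 9.71e-06). Cbx2, a chromobox protein that compacts chromatin, had 121, 85.3 and 109 against 147, 163 and 161, an LFC of −0.58 (SE 0.15, limma adjusted p = 0.00356). Bmi1, the Pcgf subunit that keeps the cell cycle inhibitors of the Cdkn2a locus silent, had 2143, 2416 and 2191 against 2628, 2873 and 2843, an LFC of −0.31 (SE 0.06, limma adjusted p = 0.000518). Cbx8 had 290, 274 and 304 in the WT cortex and 282, 399 and 354 in the WT cerebellum. These libraries overlapped, and the LFC of −0.24 (95% confidence interval −0.49 to 0.01, limma adjusted p = 0.0813) was not called. Without WT cerebellum library 2 it was −0.38 and was called, as it was with the trend on length and GC content removed (LFC −0.34, limma adjusted p = 0.0275).

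The genotype comparison asked how the SCA1 KI mice differed from WT in each region. Among the 8 members, Cbx8 was called higher in the SCA1 KI cortex and Cbx8 and Bmi1 in the SCA1 KI cerebellum, and none was called lower. Of all tested genes, 4.82% were called higher and 10.8% lower in the SCA1 KI cortex, and 0.917% and 4.44% in the SCA1 KI cerebellum. With each library's trend on length and GC content removed, the share of calls that were lower went from 69.2% to 56.1% for cortical and from 82.9% to 52.0% for cerebellar calls. The members were chosen with these differences known, and nothing is read from their counts. Their median LFC was 0.10 in the cortex and 0.22 in the cerebellum, where that of all tested genes was 0.00 in both.

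**Figure D2:**
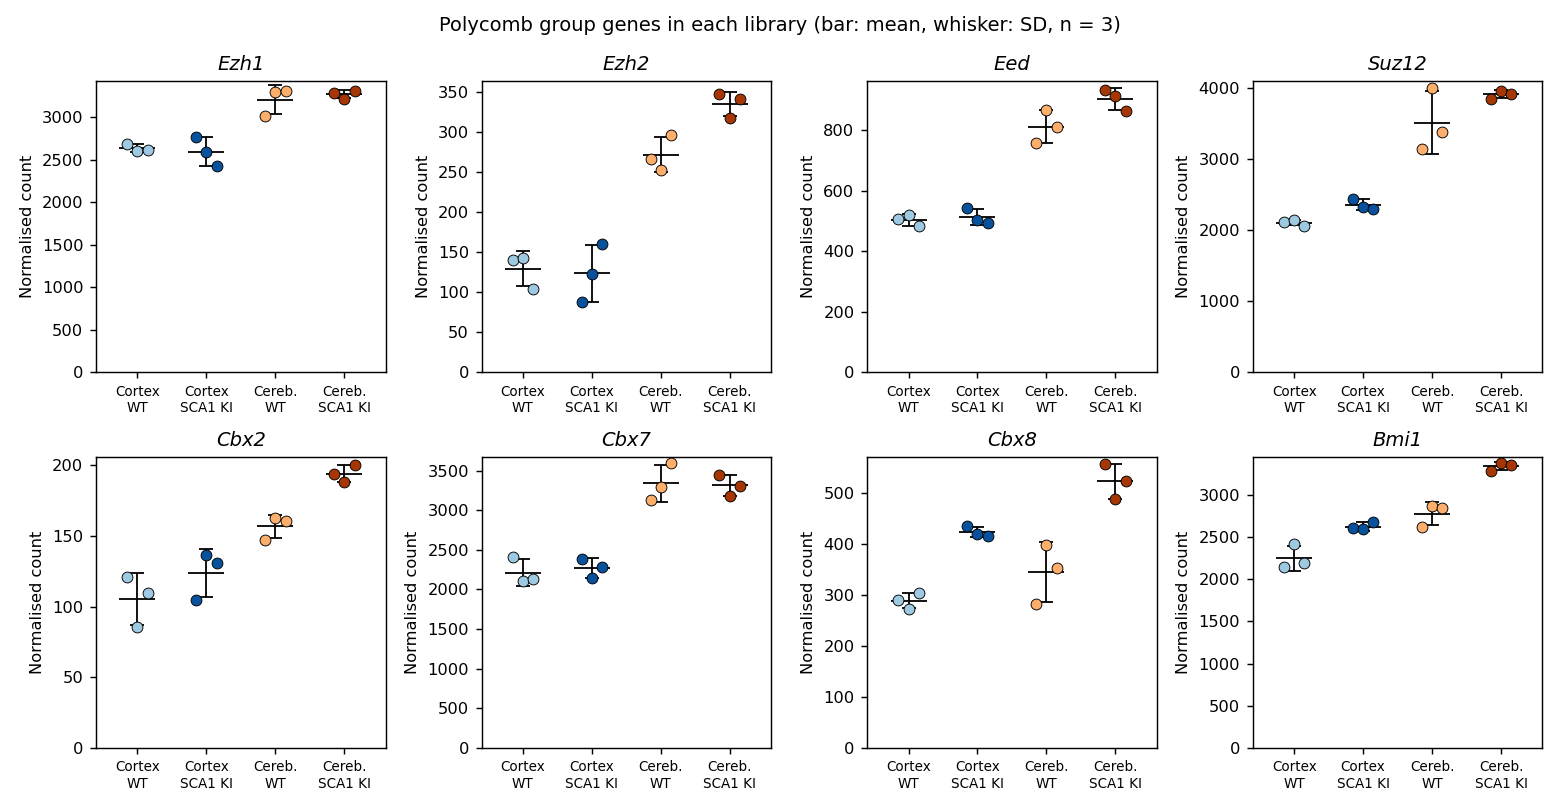
Normalised counts (vertical axis, from 0) of the 8 members in each of the 12 libraries, with points for libraries, bars for the mean and whiskers for the SD (n = 3 per group). Cbx8 lies between 416 and 436 in the SCA1 KI cortex above 274 to 304 in the WT cortex, and between 489 and 558 in the SCA1 KI cerebellum above 282 to 399 in the WT cerebellum.

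Cbx8, a chromobox protein of canonical PRC1 on chromosome 11 (119036305 to 119040969, minus strand, GRCm38), differed most. In the cortex it had 290, 274 and 304 normalised counts in the WT libraries B, C and D and 436, 421 and 416 in the SCA1 KI libraries A, E and F. In the cerebellum it had 282, 399 and 354 in the WT libraries 2, 4 and 6 and 558, 489 and 524 in the SCA1 KI libraries 1, 3 and 5. In both regions every SCA1 KI library lay above every WT library. The LFC was 0.55 (SE 0.12), or 1.47-fold, in the cortex and 0.61 (SE 0.12), or 1.53-fold, in the cerebellum. Leaving out single libraries gave LFCs of 0.51 to 0.59 in the cortex and 0.47 to 0.72 in the cerebellum, the lowest without WT cerebellum library 2.

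Bmi1 (chromosome 2, 18677018 to 18686629, plus strand) differed less. In the cortex it had 2143, 2416 and 2191 normalised counts in WT and 2606, 2594 and 2683 in SCA1 KI mice, an LFC of 0.23 (SE 0.06), below the limit of 0.25, which without WT library C was 0.28 and called. In the cerebellum it had 2628, 2873 and 2843 in WT and 3288, 3383 and 3358 in SCA1 KI mice, an LFC of 0.27 (SE 0.06). The genotypes were apart in both regions. The cerebellar call was lost in 4 of the fits without a single library, those without SCA1 KI library 1, 3 or 5 or WT library 2, with LFCs of 0.28, 0.26, 0.26 and 0.23.

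**Figure D3:**
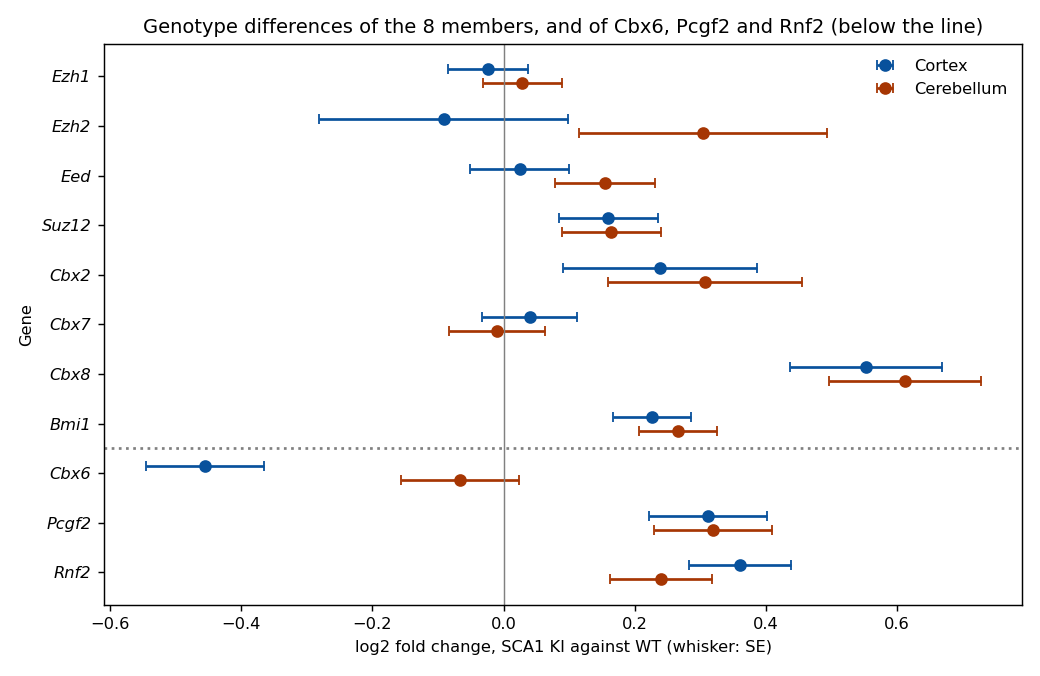
LFC between SCA1 KI and WT mice (horizontal axis, log2 scale) in the cortex (blue) and the cerebellum (brown) for the 8 members and, below the dotted line, for Cbx6, Pcgf2 and Rnf2, with whiskers for the SE (n = 3 libraries per group). Cbx8 is at 0.55 and 0.61 and Cbx6 at −0.46 and −0.07, whereas Ezh1 and Cbx7 lie within 0.04 of 0 in both regions.

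None of the PRC2 members was called by genotype with all libraries. Ezh1 had 2769, 2593 and 2430 normalised counts in the SCA1 KI cortex and 3292, 3220 and 3307 in the SCA1 KI cerebellum, LFCs of −0.02 and 0.03 (SE 0.06 each). Ezh2 had 87.7, 123 and 160 in the SCA1 KI cortex, which overlapped WT (LFC −0.09, SE 0.19), and 347, 318 and 341 in the SCA1 KI cerebellum, above all WT libraries (LFC 0.30, SE 0.19). At these low counts the SE of Ezh2 was the largest of the members. Suz12 had 2436, 2320 and 2290 in the SCA1 KI cortex, above all WT libraries (LFC 0.16, SE 0.08), and 3844, 3954 and 3913 in the SCA1 KI cerebellum, where WT library 4 at 3994 was higher (LFC 0.16, SE 0.08, or 0.26 and called without that library). Eed had 542, 503 and 492 in the SCA1 KI cortex and 935, 913 and 864 in the SCA1 KI cerebellum, with overlap in both and LFCs of 0.02 and 0.15 (SE 0.08 each).

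The remaining PRC1 members were not called either. Cbx7 had 2385, 2145 and 2283 normalised counts in the SCA1 KI cortex and 3445, 3185 and 3310 in the SCA1 KI cerebellum, LFCs of 0.04 and −0.01 (SE 0.07 each). Cbx2 had 105, 137 and 131 in the SCA1 KI cortex, overlapping WT (LFC 0.24, SE 0.15), and 194, 188 and 200 in the SCA1 KI cerebellum, above all WT libraries (LFC 0.31, SE 0.15). In all, 3 of 8 members lay wholly above WT in the cortex and 4 of 8 in the cerebellum, where 13.0% and 14.3% of all tested genes did so. The difference of the genotype LFC between the regions is likewise only a description for the members. None met its threshold, an adjusted p under 0.05, beside 8.15% of all tested genes, and nothing is read from this. The largest such difference was that of Ezh2 (−0.40, SE 0.27).

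Cbx8 and Cbx2 are neighbours on chromosome 11, with 5.0 kb between them. Cbx6, another chromobox gene of canonical PRC1, is not one of the 8 members and was tested. It lies on chromosome 15 and fell in the SCA1 KI cortex, from 23586, 24576 and 22436 to 14322, 19052 and 18494 (LFC −0.46, SE 0.09, limma adjusted p = 0.00394). SCA1 KI library A was the lowest of these. In the cerebellum the LFC of Cbx6 was −0.07 (SE 0.09), and the difference between the regions was not called (limma adjusted p = 0.0857). It was called by DESeq2 (−0.38, adjusted p = 0.0488) and by limma without SCA1 KI cortex library E (−0.46, adjusted p = 0.0391).

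Per kb, Cbx7 exceeded Cbx8 in all 12 libraries. The ratio of Cbx7 to Cbx8 was 4.34 ± 0.372 (SD, n = 3) in WT and 3.03 ± 0.126 in SCA1 KI cortical libraries, and 5.57 ± 0.831 and 3.59 ± 0.0964 in cerebellar ones. It lay apart between genotypes in cortex and cerebellum alike. The ratio of Bmi1 to its relative Pcgf2 was 2.13 ± 0.332 and 1.99 ± 0.113 in the cortex and 2.96 ± 0.168 and 2.85 ± 0.138 in the cerebellum, with overlap in both. These ratios are a description.

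Of the other Polycomb genes reported here, 47 of 48 were in the table and all 47 were tested. In the SCA1 KI cortex 6 rose and 7 fell, beside the 4.82% and 10.8% of all tested genes. In the SCA1 KI cerebellum limma called none of the 47, with 10 at an unadjusted p under 0.05, as were 2664 of all 15369 tested genes, edgeR called 0, and DESeq2 called 1 higher (Pcgf2) and 1 lower (Scml4, named after its values were seen). Their median LFC was −0.02 in the cortex and 0.04 in the cerebellum. Of the other canonical PRC1 genes, 3 of 10 rose in the cortex and 1 fell. Besides Cbx6 these were Rnf2 and Ring1, the H2A ubiquitin ligases, and Pcgf2, the nearest relative of Bmi1. In the cortex Rnf2 had 1381, 1470 and 1650 normalised counts in WT and 2099, 1915 and 1764 in SCA1 KI mice (LFC 0.36, SE 0.08, limma adjusted p = 0.00655). Pcgf2 had 1086, 917 and 841 and then 1200, 1191 and 1121 (LFC 0.31, SE 0.09, limma adjusted p = 0.0307). Ring1 had an LFC of 0.26 (SE 0.07, limma adjusted p = 0.03). The call of Pcgf2 was lost without SCA1 KI library A (LFC 0.29) or E (0.30) or WT library C (0.29) or D (0.23), and that of Ring1 without WT library B (0.26) or D (0.23) or SCA1 KI library E (0.27) or F (0.21). In the cerebellum Pcgf2 had an LFC of 0.32 (limma adjusted p = 0.0603) and was called in 6 of 21 alternatives. These were the fits without WT cortex library B or D (0.32 each), DESeq2 (0.32) and centring on the median (0.34). The others were regions fitted separately (0.32) and removal of the trend on length and GC content (0.43).

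**Figure D4:**
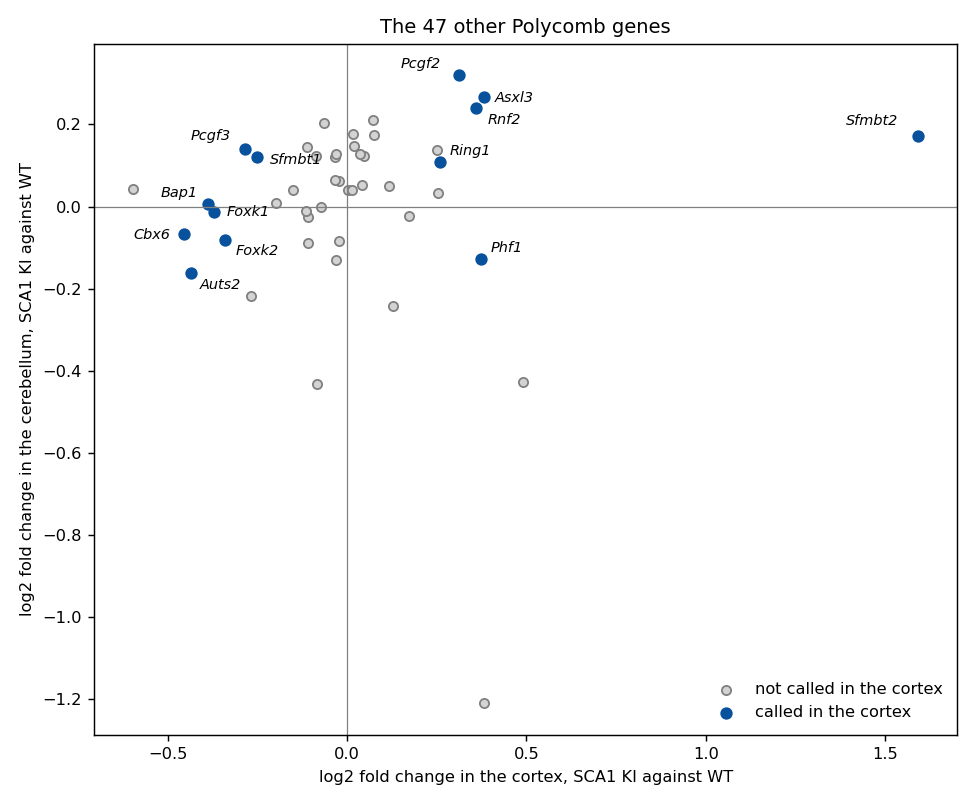
LFC between SCA1 KI and WT mice of 47 other Polycomb genes in the cortex (horizontal axis) and the cerebellum (vertical axis), both on the log2 scale, with blue points for the 13 genes called in the cortex and grey points for the rest. Sfmbt2 lies farthest right at 1.59, and 7 blue points lie left of 0.

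Outside PRC1, Sfmbt2, a methyl-lysine-binding protein of the Pho repressive complex, rose most in the SCA1 KI cortex. Its normalised counts were 128, 135 and 115 in WT and 347, 385 and 416 in SCA1 KI mice (LFC 1.59, SE 0.14, limma adjusted p = 1.43e-05). In the cerebellum they were 200.9, 163 and 160 in WT and 166, 205 and 220 in SCA1 KI mice, which overlapped. Its relative Sfmbt1 fell in the cortex (LFC −0.25, SE 0.06, limma adjusted p = 0.0123), a call lost in 7 of 21 alternatives. These were the fits without SCA1 KI library A (LFC −0.19) or WT library C (−0.24), edgeR (−0.23), DESeq2 (−0.25), centring on the median (−0.25), regions fitted separately (limma adjusted p = 0.0859) and removal of the trend on length and GC content (−0.15). Of the other PRC2 genes, 1 of 9 tested rose in the cortex, beside 4.82% of all tested genes. This was Phf1, an accessory subunit (LFC 0.37, SE 0.08, limma adjusted p = 0.00668).

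In the SCA1 KI cortex 10.8% of all tested genes were called lower and 4.82% higher. Of the genes of the complex that removes ubiquitin from H2A, 3 of 8 fell there and 1 rose. Bap1, its enzyme, had 6115, 6546 and 6625 normalised counts in WT and 4821, 4970 and 4942 in SCA1 KI cortical libraries (LFC −0.39, SE 0.05, limma adjusted p = 0.00019). In the cerebellum Bap1 had 4617 to 4727 in WT and 4625 to 4780 in SCA1 KI mice. Foxk1 and Foxk2, forkhead factors bound by the complex, had LFCs of −0.37 (SE 0.06, limma adjusted p = 0.0011) and −0.34 (SE 0.06, limma adjusted p = 0.0019) in the cortex, and Asxl3, a Bap1 cofactor, 0.38 (SE 0.11, limma adjusted p = 0.0362). Of the variant PRC1 genes, 2 of 17 fell in the cortex, a share near the 10.8% of all tested genes. These were Pcgf3 (LFC −0.29, SE 0.08, limma adjusted p = 0.0305) and Auts2 (LFC −0.44, SE 0.12, limma adjusted p = 0.0272). The call of Asxl3 was lost in 7 of 12 fits without a single library (LFC 0.27 to 0.47 over all 12). Pcgf3 was not called without SCA1 KI library A (−0.22) or F (−0.26) or WT library C (−0.24), nor Auts2 without SCA1 KI library A (−0.27) or WT library B (−0.39) or C (−0.40). With the trend on length and GC content removed, Cbx6 (−0.25), Foxk1 (−0.16), Foxk2 (−0.23), Sfmbt1 (−0.15), Pcgf3 (−0.19) and Auts2 (−0.24) were not called in the cortex.

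Of 16 genes of the H3K27 demethylases and the trithorax group, which oppose Polycomb silencing, 1 rose and 2 fell in the SCA1 KI cortex, where 4.82% of all tested genes were called higher and 10.8% lower. None was called in the cerebellum (limma), with 1 of 16 at an unadjusted p under 0.05. Ash2l, a subunit of histone H3 lysine 4 methyltransferases, had 1474, 1391 and 1313 normalised counts in WT and 1905, 1920 and 1845 in SCA1 KI cortical libraries (LFC 0.44, SE 0.06, limma adjusted p = 0.000298). Ash1l, a histone methyltransferase, fell (LFC −0.42, SE 0.07, limma adjusted p = 0.000877), as did Smarca2, a chromatin remodelling ATPase (LFC −0.29, SE 0.07, limma adjusted p = 0.0121). Smarca2 was not called with the regions fitted separately (limma adjusted p = 0.0569), without WT library C (LFC −0.27) or SCA1 KI library F (−0.24), nor with the trend on length and GC content removed (−0.18).

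Among the genes most like Cbx8 over the 12 libraries by Pearson correlation of log2(normalised count + 1), all of which share its libraries, were H2afy2 (r = 0.94), which encodes a macroH2A histone, and Srsf4 (r = 0.94), a splicing factor. H2afy2 had 741 ± 15.3 normalised counts in WT and 975 ± 76.2 in SCA1 KI cortical libraries, and 841 ± 141 and 1045 ± 20.2 in the cerebellum (SD, n = 3).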

How the data were processed

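Poly-adenylated RNA of cortex and cerebellum was measured in 12 libraries, 3 per group. The authors used STAR (mm10) for alignment and featureCounts for counting, and deposited DESeq2-normalised counts, a signal of reads divided by 1 size factor per library (versions not given in the sources used here). In every library 100% of values came out as whole reads within 0.01, recovered for edgeR and DESeq2. Strand use in counting is not given in the sources used here, so reads of Eed, Ezh2, Suz12 and Cbx7 and of genes overlapping them on the other strand, and of Cbx6 and Npcd, cannot be told apart.

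Log2(normalised count + 1) entered a limma model (version 3.58.1, R 4.3.3, moderated variances with a trend) of 12 libraries and 4 group means, for 15369 genes with a mean of at least 10, and a gene was called where the Benjamini-Hochberg adjusted p was under 0.05 and the absolute LFC over 0.25. The pseudocount understates the LFC of low genes. The difference between regions had no LFC limit. The code was tested on simulated data. Alternatives were a pseudocount of 0.5 or 5, a minimum mean of 100 or none, centring, regions fitted separately, edgeR 4.0.16, DESeq2 1.42.0, no LFC limit, removal of the trend on length and GC content (known for 95.3% of tested genes), and leaving out each library.

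The members and gene lists were chosen with earlier results of these data known. Named were the 8 members, every other listed Polycomb gene called in either region, and the 3 genes most correlated with each member called in both regions. A few listed or correlated genes are not reported here, and the list counts leave them out. Trithorax and target-family genes were named where called, which was decided after their values were seen. Coordinates are from GENCODE vM21 (GRCm38), which matched 15009 of 15758 symbols.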

Additional observations from a re-analysis of the deposited data

Results flagged for a closer look

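The genotype difference of 16 genes named here differed between cortex and cerebellum by the interaction test of limma (adjusted p under 0.05). Of all tested genes 8.15% did so. The 16 were sought among the members and the listed genes called by genotype in either region, a choice that favours such a call. Over whole lists, 6 of 47 other Polycomb genes, 3 of 16 in the trithorax list and 8 of 38 in the target families differed. The values are the cortical minus the cerebellar LFC. Among the other Polycomb genes these were Sfmbt2 (1.42), Phf1 (0.50), Pcgf3 (−0.43), Bap1 (−0.39), Sfmbt1 (−0.37) and Foxk1 (−0.36). Without single libraries the calls of Phf1, Pcgf3, Sfmbt1 and Foxk1 were lost, that of Pcgf3 in 10 of 12 such fits. Among the trithorax group they were Ash1l (−0.45), Ash2l (0.37) and Smarca2 (−0.35). The call of Ash2l was lost without SCA1 KI cerebellum library 1 or 5, and that of Smarca2 in 9 of 12 fits, with no filter and with edgeR. With the trend on length and GC content removed, the calls of Foxk1, Ash2l and Smarca2 were lost (limma adjusted p = 0.246, 0.0501 and 0.108). Among transcription factor families with many Polycomb targets they were Six3 (8.57), Gata3 (6.35), Lhx9 (6.33), Hoxc4 (5.58), Pax2 (3.06), Lhx2 (2.90) and Irx5 (2.70), whose sizes depend on the pseudocount where a group is near 0. The call of Hoxc4 was lost in 8 of 12 fits without a single library, with a pseudocount of 5 (limma adjusted p = 0.0958), with no filter (0.0507) and with edgeR (0.0518). None of the 8 members was among them.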

How the results depend on the processing

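No paired analysis was possible because the columns carry letters and numbers of their own and not the replicate numbers of the labels. Leaving out 1 library gave 1 to 2 called members in the cortex, 1 to 3 in the cerebellum, 0 for the difference between regions and 7 to 8 for the regional comparison, which had 8 with the trend on length and GC content removed. With no LFC limit 2 members were called in the cortex. Of the other Polycomb genes, leaving out 1 library gave 3 to 6 higher and 4 to 8 lower cortical calls, and 0 to 1 higher and 0 to 1 lower cerebellar calls. Regions fitted separately gave 3 higher and 4 lower cortical calls and 1 higher cerebellar call, the cortical calls of Ring1, Pcgf2, Pcgf3, Auts2, Asxl3 and Sfmbt1 being lost. Centring and DESeq2 also gave 1 higher in the cerebellum, and DESeq2 1 lower. With the trend on length and GC content removed, 2 cortical calls were lower and 4 cerebellar calls higher, and Cbx6, Pcgf3, Auts2, Foxk1, Foxk2 and Sfmbt1 were no longer called in the cortex. Over all genes that removal moved the lower share of calls from 69.2% to 56.1% (cortex) and from 82.9% to 52.0% (cerebellum). The cause of these shifts was not tested. Leaving out 1 library gave 1814 to 2593 called genes in the cortex, 399 to 977 in the cerebellum, 783 to 1267 for the difference between regions and 9004 to 9580 for the regional comparison, where SCA1 KI cerebellum library 1, 3 or 5 left out gave 399, 454 and 512 cerebellar calls. Among other calls lost without 1 library were Ring1, Pcgf2, Pcgf3, Auts2, Asxl3, Sfmbt1 and Smarca2 in the cortex. With 3 libraries per group, precision is limited most for Ezh2 and Cbx2, at 85.3 to 347 normalised counts.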

Other observations

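Of 53 genes of homeobox, Gata, Pax and T-box families and the Cdkn2 locus, which hold many Polycomb targets in embryonic cells, 15 had a mean under 10 normalised counts and 38 were tested. In the SCA1 KI cortex limma called 6 higher and none lower, beside 4.82% and 10.8% of all tested genes. In the SCA1 KI cerebellum it called 4 lower and none higher, beside 4.44% and 0.917% of all tested genes. The 6 include Pax3, which passed the filter through the cerebellum and of which 2 of the 3 SCA1 KI cortex values lie below that of 3 reads. Pax2, a factor of midbrain and cerebellar development, rose in the cortex from 11.9, 19.9 and 39.8 normalised counts in WT to 346, 186 and 132 in SCA1 KI mice (limma adjusted p = 0.000102). Tbx2 rose from 101, 97.4 and 76.3 to 232, 135 and 137 (limma adjusted p = 0.0195), a call lost without SCA1 KI library A (LFC 0.57) or WT library D (0.70) or with the regions fitted separately (limma adjusted p = 0.0519). Irx5 rose from 8.3, 2.2 and 1.1 to 16.8, 17.2 and 34.2 (limma adjusted p = 0.00163). Its values in WT libraries C and D lie below those of 3 reads (3.32 and 3.42 normalised counts). Pax3 and Hoxc4 were at 0 in all 3 WT cortex libraries and at 1.0 to 9.9 and 13.5 to 43.4 in the SCA1 KI cortex, and their calls were lost without WT library B, C or D (Pax3, limma adjusted p = 0.0559, 0.0652 and 0.052) or SCA1 KI library A (Hoxc4, limma adjusted p = 0.0517). Pax3 was also not called with a pseudocount of 5 (limma adjusted p = 0.114) or the regions fitted separately (0.215), nor Hoxc4 by edgeR (adjusted p = 0.077).

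Lhx9, a factor of thalamus and midbrain, moved in opposite directions. It rose in the SCA1 KI cortex, from 38.0, 4.4 and 10.2 normalised counts to 76.9, 54.7 and 115 (limma adjusted p = 0.00536), and fell in the SCA1 KI cerebellum, from 727, 418 and 571 to 43.8, 32.3 and 46.5 (limma adjusted p = 0.00139). Six3, Gata3 and Lhx2 fell in the cerebellum, Six3 from 321, 132 and 233 to 1.7, 1.4 and 1.9. These SCA1 KI values of Six3 lie below those of 3 reads (2.53, 2.06 and 2.90 normalised counts). A gene that passes the filter only through the WT cerebellum can be called only lower there, which limits what such calls show. The call of Gata3 was lost without SCA1 KI library 1 (LFC −3.68) or 3 (−3.72) or WT library 2 (−3.62) or 6 (−3.98). Tcf7l2, a marker of thalamus, moved with these genes and Lhx9 in the cerebellum, at 1480 to 2404 in WT and 210 to 249 in SCA1 KI mice. In the cortex, where Lhx9 rose, the libraries of Tcf7l2 overlapped, at 177 to 208 in WT and 108 to 310 in SCA1 KI mice. Its part in these differences was not tested.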
